A study of Mus musculus with 14 samples.

Results

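The genes of sterol and fatty acid metabolism were followed in activated CD4+ T cells of mice that lack HDAC1, with or without the loss of an *Hdac2* allele. HDAC1 and HDAC2 are histone deacetylases, enzymes that remove acetyl groups from lysines. The set held 36 genes, chosen by pathway and name and not by a threshold on their values. They were chosen with earlier results of these data known, among them the unlike response of *Acads* in the 2 experiments. In all, 43875 genes had a value in every sample of the first experiment and 33431 in the second. The set comprised 14 genes of sterol synthesis, 5 of sterol regulation and efflux, 8 of fatty acid synthesis, 8 of mitochondrial beta-oxidation, and the ketone body gene *Bdh2*.

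RNA-Seq of 14 samples covered 2 experiments on C57BL/6 mice. In the first, 4 HDAC1cKO-HDAC2HET samples (*Hdac1* fl/fl *Hdac2* fl/+ *Cd4*-Cre) were set against 4 WT samples, all from naive cells cultured for 3 days with anti-CD3, anti-CD28, and IL-2. In the second, 3 HDAC1cKO samples (*Hdac1* fl/fl *Cd4*-Cre) were set against 3 WT samples, and the cells received anti-CD3 again for 12 hours after the 3 days. The study cites an earlier publication for this second comparison, so the methods given below may not describe its samples in full. The study states that mice of both sexes aged 6 to 12 weeks and littermate controls were used. *Cd4*-Cre is active from the thymocyte stage that expresses CD4, so the alleles were deleted in the T cell lineage and not acutely in culture. The labels name the spleen, whereas the study's methods describe naive cells sorted from the spleen together with lymph nodes, and live cells were sorted for RNA after culture. The study calls the samples of the first experiment independent batches and biological samples and refers to 4 mice, but it does not state how many animals made up a sample of either experiment. The p-values measure the spread between these samples.

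Cholesterol is built from acetyl-CoA through mevalonate, isoprenoids, squalene, and lanosterol. When membrane sterols run low, the SREBP proteins, encoded by *Srebf1* and *Srebf2*, leave the endoplasmic reticulum and activate the genes of sterol and fatty acid synthesis, and the INSIG proteins hold them back when sterols are plentiful. T cells raise sterol and lipid synthesis when they are activated and begin to divide, whereas beta-oxidation breaks fatty acids down in mitochondria.

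Levels are FPKM, the fragments of a transcript scaled by its length and by library size, from tables that the authors made for each library on its own. Estimated depth ranged from 21500000 to 52000000 fragments. The targeted gene *Hdac1* ranged from 72.3 to 81.1 FPKM in the 7 WT samples, from 6.65 to 10.7 FPKM with HDAC1cKO-HDAC2HET, and from 8.52 to 12.1 FPKM with HDAC1cKO. *Hdac2* fell to 59.9% of WT in HDAC1cKO-HDAC2HET cells (limma adjusted p = 2.82e-06). All 8 CD4+ T cell markers examined were expressed, with sums of 1760 to 1880 FPKM in WT and 1540 to 1580 FPKM in HDAC1cKO-HDAC2HET samples, where 7 of the 8 fell and *Cd2* rose, and of 1390 to 1720 FPKM across the second experiment. The myeloid, NK, erythroid, adipocyte, and hepatocyte lists summed to at most 1.32 FPKM in any sample. The B cell list summed to 0.497 to 0.945 FPKM in WT and 2.78 to 4.38 FPKM in HDAC1cKO-HDAC2HET samples, mostly from *Cd79b*, and the CD8 genes to 3.28 to 5.96 and 11.7 to 15.2 FPKM. In the second experiment the B cell list stayed at or below 1.02 FPKM, and the CD8 genes summed to 3.80 to 4.86 FPKM in WT and 6.52 to 7.30 FPKM in HDAC1cKO samples. The part of these shifts in the results was not tested, and in such bulk samples fewer cells of a type and less RNA per cell cannot be told apart. In the second experiment *Xist* was at 33.2 FPKM or more in WT replicates 1 and 3 and under 0.05 FPKM in WT replicate 2 and in all 3 HDAC1cKO samples, with the opposite pattern for the Y-linked *Ddx3y*, except in WT replicate 3. *Ddx3y* was at 0.0176 FPKM in WT replicate 1, 18.3 FPKM in WT replicate 2, 1.93 FPKM in WT replicate 3, and 17 to 20 FPKM in the HDAC1cKO samples, so WT replicate 3 had both *Xist* and Y-linked transcripts. The sexes were thus unequally divided there and WT replicate 3 fits neither class, whereas *Xist* was at 58.9 to 65.2 FPKM in WT and 26 to 33.7 FPKM in HDAC1cKO-HDAC2HET samples of the first.

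In HDAC1cKO-HDAC2HET cells the members divided by pathway. Of the genes tested, 10 of 12 of sterol synthesis fell and 8 of 8 of beta-oxidation rose, those of fatty acid synthesis were split, and *Bdh2* had the largest fold change of the members. A value in all 8 samples was found for 32 of the 36 members, and all 32 passed the filter of a mean FPKM of 0.1. By limma with an adjusted p of at most 0.05, 9 of the 32 rose, where 24.2% of the 15097 genes tested did, and 15 fell, where 27.6% of all genes did. A call alone was therefore common in this experiment. With a fold of at least 2 as well, 1 member rose and 5 fell, beside 5.60% and 5.58% of all genes. The HDAC1cKO-HDAC2HET samples lay above every WT sample for 9 members and below every WT sample for 13, compared with 23.4% and 26.9% of all genes. The median log2 fold change over all genes tested was -0.04.

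**Figure D1:**
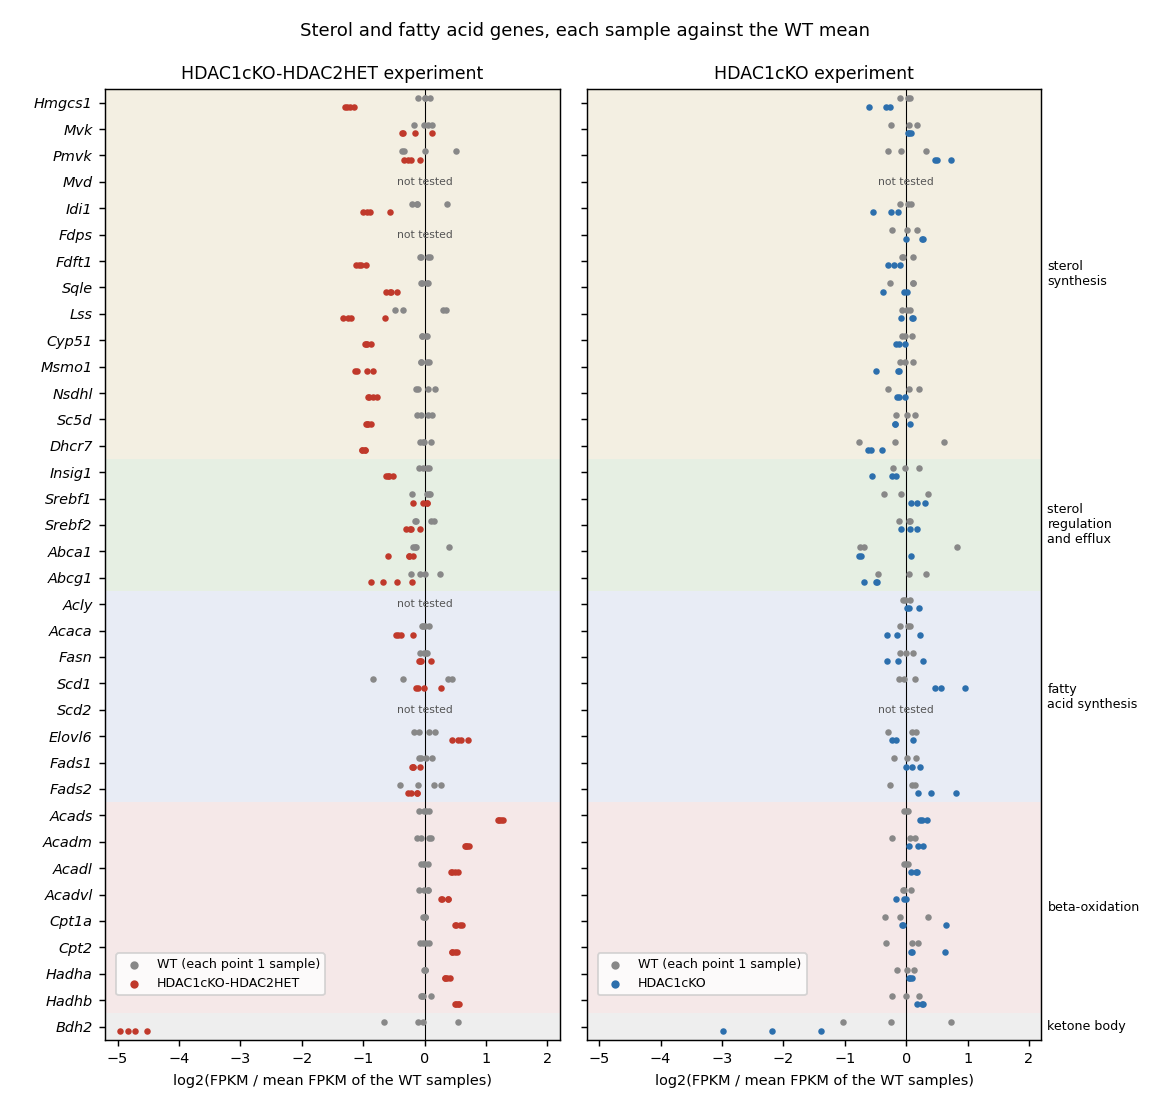
Each point is 1 sample, placed by log2 of its FPKM over the mean FPKM of the WT samples of its experiment (x axis), for the 36 members (y axis, with members not tested so marked) in the first (left) and second (right) experiment. In the left panel 13 members lie wholly below WT, among them 10 of sterol synthesis, and 9 lie wholly above, among them all 8 of beta-oxidation, while in the right panel most members overlap WT.

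Sterol synthesis leaned to 1 side. Of its 14 genes, 12 were tested, 10 of them fell, where 27.6% of all genes tested did, *Mvk* and *Pmvk* did not pass the test, and none rose. The median log2 fold change of the 12 was -0.92, and the 10 that fell had values from -1.23 to -0.55. In all 10 every mutant sample was below every WT sample (exact permutation test, 2-sided, p = 0.0286 for each, the smallest that 4 samples against 4 allow).

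An early step is made by *Hmgcs1*, the cytosolic HMG-CoA synthase (GRCm38 chromosome 13, 119690379 to 119708260). It had 244, 212, 230, and 231 FPKM in WT against 103, 93.2, 99.1, and 95.3 FPKM in HDAC1cKO-HDAC2HET cells. Each group was narrow, they lay far apart, and the mutant mean was 42.6% of that of WT. The log2 fold change was -1.23 (SE 0.05, limma adjusted p = 1.99e-06).

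The next enzymes are the kinases of mevalonate. *Mvk* ranged from 18.4 to 22.5 FPKM in WT and from 16.1 to 22.6 FPKM in HDAC1cKO-HDAC2HET samples, so the groups overlapped (log2 fold change -0.18, adjusted p = 0.247, but -0.28 and 0.0342 without mutant replicate 4, the highest). *Pmvk* had 62.4 to 116 FPKM in WT, the highest in replicate 4, and 63.9 to 77.2 FPKM in the mutant (log2 fold change -0.18, adjusted p = 0.472). With all samples, neither kinase differed by more than the spread between them. The expression of *Mvd*, the decarboxylase that follows, was not analysed here.

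*Idi1* interconverts the 5-carbon isoprenoid units. It had 154, 104, 109, and 110 FPKM in WT and 62.6, 59.8, 64.6, and 80.7 FPKM in HDAC1cKO-HDAC2HET samples (log2 fold change -0.83, adjusted p = 0.00194). The highest sample of each group was the one whose row was matched by position while the other 3 were listed by name, and the mutant lay below WT among samples of either kind. *Fdps*, the farnesyl diphosphate synthase, could not be tested in this experiment because its reads were assembled into a longer locus in all 8 samples. That locus had 151 to 174 FPKM in WT and 123 to 147 FPKM in HDAC1cKO-HDAC2HET samples, values that also count reads outside *Fdps*.

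*Fdft1*, the squalene synthase that commits isoprenoids to sterols, had 43.6, 38.8, 42.6, and 39.2 FPKM in WT against 21.3, 19.5, 20.1, and 19.0 FPKM in the mutant. Both groups were tight, and the fall to 48.7% of WT exceeded their spread many times over (log2 fold change -1.03, SE 0.05, adjusted p = 4.90e-06). *Sqle*, the squalene epoxidase and a rate-limiting enzyme of the later pathway, fell less, from 72.4 ± 2.83 to 49.5 ± 2.74 FPKM (SD, n = 4 each, adjusted p = 4.56e-05). *Lss*, which closes the rings to lanosterol, had 52.8, 29.9, 51.0, and 32.5 FPKM in WT and 26.7, 17.6, 18.1, and 16.5 FPKM in the mutant. Its samples scattered more than those of its neighbours, and the lowest WT value stood only just above the highest mutant value (log2 fold change -1.05, SE 0.24, adjusted p = 0.00658).

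The enzymes that trim lanosterol to cholesterol fell by similar amounts. *Cyp51*, the lanosterol demethylase, went from 111, 112, 106, and 106 FPKM to 59.4, 55.4, 57, and 56.1 FPKM (log2 fold change -0.93, SE 0.03, adjusted p = 1.22e-06). *Msmo1*, a methylsterol oxidase, had 75.6, 80.5, 75.9, and 82.9 FPKM in WT and 43.8, 36.8, 41.0, and 35.7 FPKM in the mutant. *Nsdhl*, the dehydrogenase that acts after it, had 46.1, 40.2, 50.3, and 41.3 FPKM in WT and 23.8, 25.9, 24.9, and 23.4 FPKM in the mutant. The mutant means of these genes were 50% and 55.1% of WT (adjusted p = 1.65e-05 and 5.20e-05).

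*Sc5d*, a sterol desaturase, had 52.5, 44.3, 50.4, and 46.6 FPKM in WT against 25.7, 25.3, 26.4, and 25.1 FPKM in HDAC1cKO-HDAC2HET samples. *Dhcr7*, a reductase at the end of the pathway, had 39.9, 40.3, 43.7, and 38.4 FPKM in WT against 20, 20.7, 20.1, and 20.7 FPKM. The mutant samples of both genes were almost level with each other. Their log2 fold changes were -0.91 (adjusted p = 8.73e-06) and -0.99 (adjusted p = 2.17e-06).

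**Figure D2:**
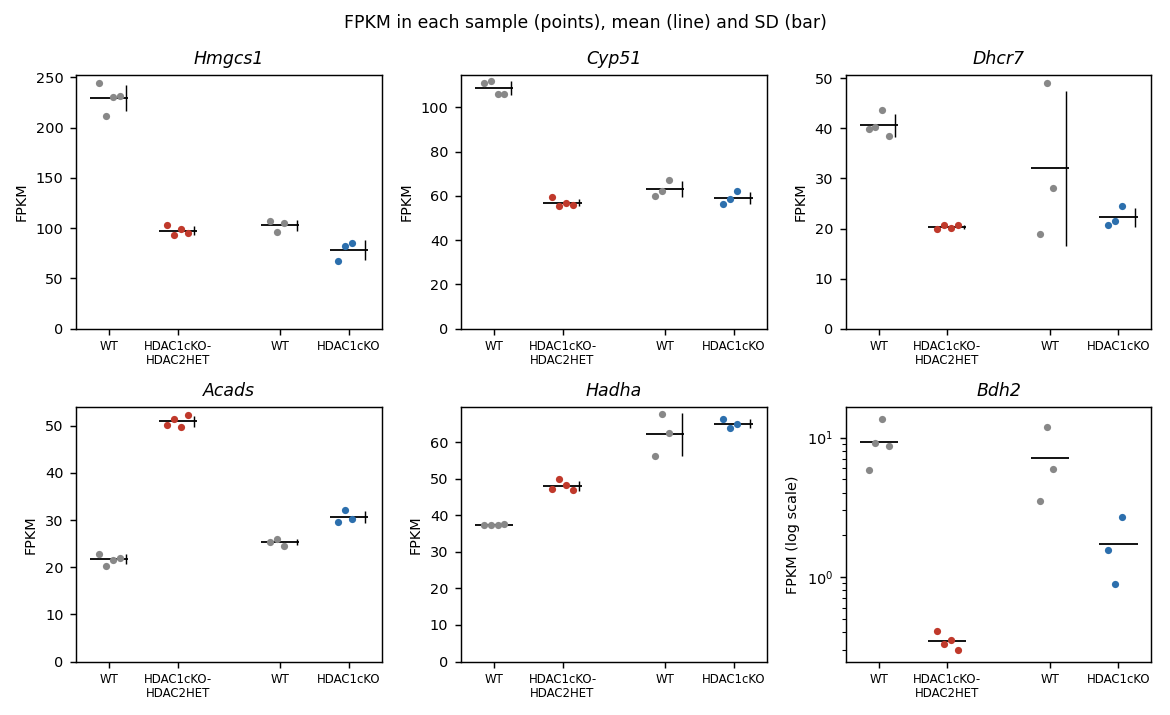
FPKM (y axis) of 6 members in each sample (points) of the 4 groups (x axis), with the mean (horizontal line) and SD (vertical bar, omitted for *Bdh2*, which is on a log scale). *Hmgcs1*, *Cyp51*, and *Dhcr7* lie lower and *Acads* and *Hadha* higher in the 4 HDAC1cKO-HDAC2HET samples than in their 4 WT samples, and *Bdh2* falls below 1 FPKM there.

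The promoters of 4 sterol genes are shown because they had the largest log2 falls among those with a promoter sequence. RefSeq promoters, from 250 bases before to 50 bases after the start on GRCm38.p6, were matched to 29 of the 36 members and to 11 of the 14 sterol synthesis genes. *Fdps*, *Fdft1*, *Sqle*, *Abcg1*, *Scd1*, *Scd2*, and *Fads1* had no entry. The motifs searched on both strands were the sterol response element core TCACNCCAC, where N is any base, the E-box CACGTG, the CCAAT box CCAAT, and the GC box GGGCGG. Capitals mark the matches, and no matches of different motifs overlapped in the members. The promoters of *Hmgcs1* (chr13:119690101-119690400, plus strand), *Lss* (chr10:76531355-76531654, plus strand), *Msmo1* (chr8:64733529-64733828, minus strand), and *Dhcr7* (chr7:143822917-143823216, plus strand) read 5′ to 3′ as follows.
Hmgcs1: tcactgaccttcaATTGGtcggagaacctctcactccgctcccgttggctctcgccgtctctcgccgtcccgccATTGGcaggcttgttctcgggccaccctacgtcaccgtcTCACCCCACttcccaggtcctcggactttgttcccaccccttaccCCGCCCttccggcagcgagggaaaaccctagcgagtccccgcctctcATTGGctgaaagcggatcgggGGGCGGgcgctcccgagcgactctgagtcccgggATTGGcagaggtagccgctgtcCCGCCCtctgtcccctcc
Lss: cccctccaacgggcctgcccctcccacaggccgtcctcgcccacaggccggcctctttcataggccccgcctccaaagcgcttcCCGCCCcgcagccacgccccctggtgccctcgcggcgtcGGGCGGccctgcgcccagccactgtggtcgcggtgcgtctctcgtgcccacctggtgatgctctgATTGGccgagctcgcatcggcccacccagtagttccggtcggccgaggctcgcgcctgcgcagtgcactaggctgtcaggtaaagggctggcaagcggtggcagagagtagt
Msmo1: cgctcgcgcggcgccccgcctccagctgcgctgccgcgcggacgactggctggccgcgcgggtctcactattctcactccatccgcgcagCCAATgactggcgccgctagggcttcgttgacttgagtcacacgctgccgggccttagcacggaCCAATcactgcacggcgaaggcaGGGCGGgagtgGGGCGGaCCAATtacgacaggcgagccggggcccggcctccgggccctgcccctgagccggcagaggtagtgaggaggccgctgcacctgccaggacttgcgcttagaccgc
Dhcr7: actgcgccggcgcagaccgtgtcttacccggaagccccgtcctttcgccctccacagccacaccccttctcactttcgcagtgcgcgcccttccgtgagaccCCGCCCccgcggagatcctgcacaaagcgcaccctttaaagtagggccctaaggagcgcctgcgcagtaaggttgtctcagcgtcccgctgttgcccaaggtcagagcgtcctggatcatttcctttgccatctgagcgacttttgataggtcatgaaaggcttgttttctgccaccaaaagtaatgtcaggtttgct

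*Hmgcs1* held the only sterol response element core among the 29 members with a promoter, TCACCCCAC from base -137, with 4 CCAAT boxes and 3 GC boxes around it. *Lss* held 1 CCAAT box and 2 GC boxes, *Msmo1* 3 and 2, and *Dhcr7* a single GC box. The RefSeq start of *Msmo1* lies 214 bases downstream of its GENCODE start, so all its matches lie within the GENCODE gene. A CCAAT box was present in 10 of the 11 sterol promoters, or 90.9%, and in 38.8% of 16521 promoters of protein-coding genes, and it occurred in 1 of the 8 beta-oxidation promoters. A GC box was present in 90.9% of the sterol promoters and 48.2% of all, but also in 6 of the 8 beta-oxidation promoters. The sterol response element core was present in 9.09% of the sterol promoters and 1.18% of all. *Mvk*, which did not pass the test, carried 5 CCAAT boxes, more than any of the other 10. A match describes letters only, and its use by a factor was not measured.

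**Figure D3:**
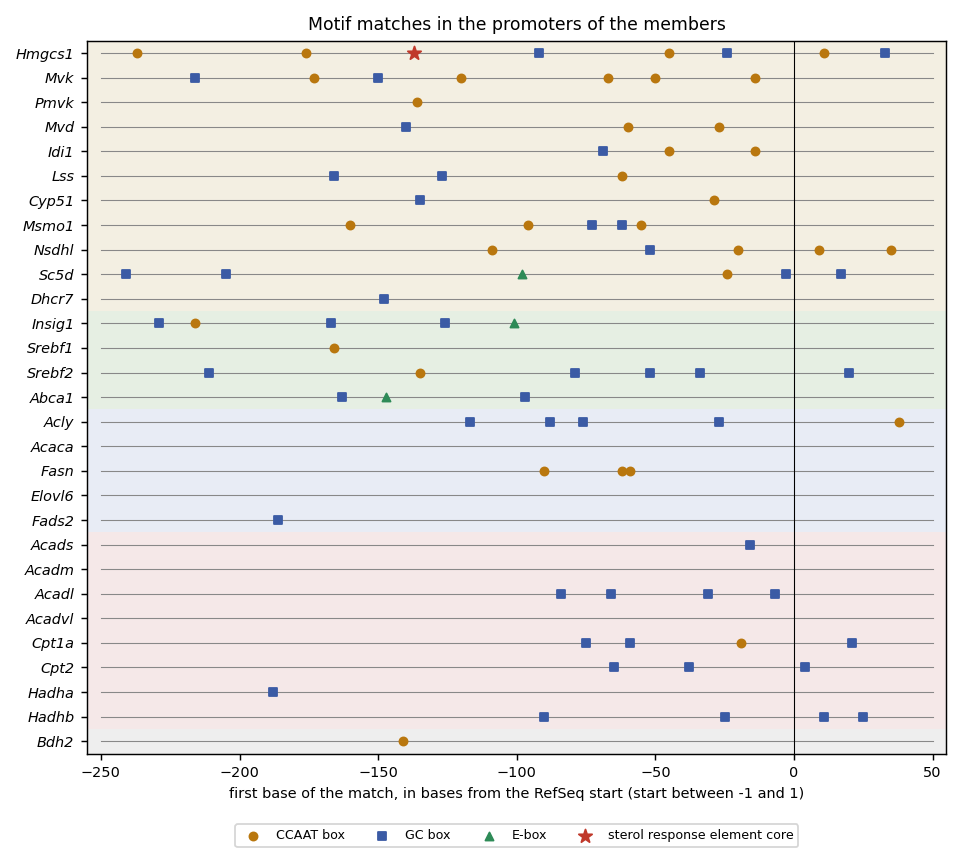
Matches of 4 motifs (symbols) by the distance of their first base from the RefSeq start (x axis, in bases) in the promoters of 29 members (y axis, shaded by pathway). CCAAT boxes lie in 10 of the 11 sterol synthesis promoters at the top and in 1 of the 8 beta-oxidation promoters near the bottom.

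Among the 5 genes of sterol regulation and efflux 2 fell, where 27.6% of all genes tested did, and 3 did not pass the test. *Insig1*, an SREBP target whose product retains SREBP in the endoplasmic reticulum, had 62.2 to 69.7 FPKM in WT and fell to 43.1 to 46.5 FPKM in the mutant (log2 fold change -0.57, adjusted p = 2.39e-05). *Srebf1* had 57.7 to 70.8 FPKM in WT and 58.2 to 68.5 FPKM in the mutant, and its groups overlapped (adjusted p = 0.781). *Srebf2*, the main sterol regulator, had 135 to 167 and 122 to 142 FPKM (log2 fold change -0.21, adjusted p = 0.0755). The adjusted p of *Srebf2* was 0.0448 without WT replicate 2 and 0.02565 with quantile normalization. *Abca1* and *Abcg1* encode transporters that export cholesterol and are induced when sterols accumulate. *Abca1* was near its floor in both groups at 0.448 ± 0.0970 and 0.360 ± 0.0433 FPKM (SD, n = 4 each, adjusted p = 0.242). *Abcg1* went from 4.70 ± 0.658 to 3.27 ± 0.659 FPKM with overlapping groups (adjusted p = 0.0242), a call that was lost when WT replicate 3 or 4 or mutant replicate 3 or 4 was left out (adjusted p = 0.0518 to 0.0627). The call was also lost with quantile normalization (adjusted p = 0.0519) and with the replicate number as a block (adjusted p = 0.07945).

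The wider list of sterol synthesis and its regulation, which held 14 genes outside the set, was also examined. Of 13 tested, 9 fell, where 27.6% of all genes did, and none rose, with a median log2 fold change of -0.31. *Stard4*, a cholesterol carrier, fell from 43.5 ± 4.56 to 23.2 ± 1.60 FPKM (SD, n = 4 each, adjusted p = 6.09e-05), and *Hsd17b7*, a reductase of the pathway, from 14.5 ± 2.5 to 8.27 ± 0.262 FPKM (adjusted p = 8.63e-04). Among 11 tested genes of sterol handling, 2 rose and 4 fell, beside 24.2% and 27.6% of all genes. *Lpcat3*, which remodels phospholipids, rose from 28.7 to 37.9 FPKM (log2 fold change 0.40), whereas the nuclear receptor gene *Rxra* and *Soat1*, which esterifies cholesterol, had log2 fold changes of -0.64 and -0.57.

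Fatty acid synthesis showed no common direction. Of its 8 genes 6 were tested, 1 rose, and 2 fell, beside 24.2% and 27.6% of all genes tested. The other 3 did not pass the test, and the median log2 fold change was -0.10. *Acaca*, the acetyl-CoA carboxylase that commits carbon to fatty acids, fell from 19.0 ± 0.655 to 14.8 ± 1.26 FPKM (SD, n = 4 each, adjusted p = 0.00145). *Fasn*, the synthase itself, stood at 76.8 ± 2.84 and 75.0 ± 4.95 FPKM (adjusted p = 0.601, and 0.0401 with quantile normalization). *Acly*, which supplies cytosolic acetyl-CoA, was not tested because WT replicate 4 had a longer locus, but it ranged from 103 to 110 FPKM in the other 7 samples of both groups and that locus had 104 FPKM.

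Elongation and desaturation were uneven as well. *Elovl6*, which elongates palmitate, had 10.2, 8.64, 11.0, and 9.10 FPKM in WT and 15.9, 14.7, 14.2, and 13.2 FPKM in the mutant. It was the only member of this pathway that rose, and its groups did not overlap (log2 fold change 0.57, SE 0.09, adjusted p = 9.97e-04). *Scd1*, a desaturase that makes oleate, had 26.1, 10.7, 25.1, and 15.1 FPKM in WT and 17.4 to 23.1 FPKM in the mutant, so no change could be read from it (adjusted p = 0.82). In WT its values of 26.1 and 25.1 were matched by position and the other 2 were listed by name. *Scd2*, its paralog, was covered by a longer locus in WT replicates 3 and 4 and mutant replicate 4 and was not tested, and the remaining samples had 221 and 238 FPKM in WT and 180 to 217 FPKM in the mutant. The Cufflinks bounds of these *Scd2* values ran from 0 to 674 FPKM or more, so its level is not determined. *Fads1* passed the threshold with overlapping groups, from 18.3 ± 1.18 to 16.3 ± 0.706 FPKM (adjusted p = 0.0366), and leaving out any of WT replicates 1 and 3 and mutant replicates 2 to 4 raised that p to between 0.0757 and 0.0898. The call of *Fads1* was also lost with median-ratio centring, quantile normalization, no variance trend, or both experiments in 1 fit (adjusted p = 0.05315 to 0.1115). *Fads2*, the other of these desaturases of polyunsaturated fatty acids, had 40.3 to 64.1 and 43.9 to 48.7 FPKM (adjusted p = 0.36). Without WT replicate 2 the adjusted p of *Fads2* was 0.0387.

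Of the wider list of fatty acid synthesis, elongation, and activation, 21 of 29 genes were tested, 12 rose, and 4 fell. Over all genes tested, 24.2% rose and 27.6% fell. *Elovl4*, an elongase of very long chains, rose from 0.244 ± 0.0504 to 0.647 ± 0.0535 FPKM (SD, n = 4 each, adjusted p = 3.05e-04), and *Fads3* from 0.720 ± 0.152 to 2.09 ± 1.15 FPKM (adjusted p = 0.00890). *Oxsm*, of mitochondrial fatty acid synthesis, fell from 4.59 ± 0.0781 to 1.99 ± 0.192 FPKM (adjusted p = 1.02e-05), and *Acsl3*, which activates fatty acids, from 27.7 to 22.2 FPKM.

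All 8 genes of beta-oxidation rose, where 24.2% of all genes tested did, with a median log2 fold change of 0.50 and a range of 0.33 to 1.23. In each of them the lowest HDAC1cKO-HDAC2HET sample was higher than the highest WT one (exact permutation test, 2-sided, p = 0.0286 for each). *Acads*, the dehydrogenase for short-chain fatty acids (chromosome 5, 115110299 to 115119346), rose most. It had 22.8, 20.3, 21.6, and 22.0 FPKM in WT and 50.1, 51.5, 49.7, and 52.3 FPKM in the mutant. Both groups were compact and far apart, the mean stood 2.35-fold higher, and *Acads* was the single member that rose at least 2-fold (log2 fold change 1.23, SE 0.04, adjusted p = 9.01e-07).

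The dehydrogenases for longer chains rose less. *Acadm*, for medium chains, had 16.4, 15.6, 18.2, and 17.8 FPKM in WT and 26.8, 27.2, 27.5, and 28.1 FPKM in the mutant (log2 fold change 0.69, adjusted p = 2.38e-05). *Acadl*, for long chains, had 48.4, 44.8, 46.3, and 46.1 FPKM against 62.7, 67.4, 65.2, and 63.4 FPKM. *Acadvl*, for very long chains, had 40.6, 38.7, 42.5, and 42.6 FPKM against 49.6, 53.3, 50, and 53.7 FPKM. Listed from short to very long substrates, the log2 fold changes were 1.23, 0.69, 0.48, and 0.33, and whether they differ from each other was not tested. Related genes outside the set did not rise alike. *Acadsb* and *Acad9* had -0.09 and 0.34 and were not called. *Acad8*, *Acad10*, and *Acad12* were called lower, with -0.46, -0.90, and -0.84.

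The carnitine palmitoyltransferases bring long chains into mitochondria. *Cpt1a*, the gated step, rose from 13.6 ± 0.187 to 19.8 ± 0.709 FPKM and *Cpt2* from 7.45 ± 0.306 to 10.4 ± 0.308 FPKM (SD, n = 4 each, adjusted p = 9.80e-06 and 5.84e-05). The subunits of the mitochondrial trifunctional protein, which completes the cycle for long chains, rose together. *Hadha* had 37.2, 37.3, 37.3, and 37.5 FPKM in WT and 47.2, 49.9, 48.3, and 46.8 FPKM in the mutant, and *Hadhb* rose from 26.6 ± 1.29 to 38.4 ± 0.661 FPKM. *Hadha* and *Hadhb* lie head to head on chromosome 5, the first ending at 30155162 and the second starting at 30155248. Their adjusted p-values were 2.10e-05 and 1.93e-05.

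The wider list of mitochondrial and peroxisomal beta-oxidation went both ways. Of its 25 genes tested, 5 rose and 10 fell, beside 24.2% and 27.6% of all genes, and the median log2 fold change was 0.02. *Crat*, the carnitine acetyltransferase, rose from 1.96 ± 0.352 to 10.1 ± 1.49 FPKM (SD, n = 4 each, adjusted p = 1.25e-05), and *Eci1*, an enoyl-CoA isomerase, from 12 ± 0.655 to 29.1 ± 1.19 FPKM (adjusted p = 1.65e-06). *Cpt1c* fell from 0.552 ± 0.261 to 0.154 ± 0.0234 FPKM and *Acad10* from 1.40 ± 0.129 to 0.703 ± 0.0869 FPKM (adjusted p = 0.00771 and 3.44e-04). Genes at higher levels fell as well. *Slc25a20* went from 15.7 to 9.75 FPKM and *Etfa* from 67.7 to 54.3 FPKM (adjusted p = 9.83e-06 and 9.05e-05). *Echs1* went from 31.7 to 27.9 FPKM and *Decr1* from 11.5 to 8.93 FPKM (adjusted p = 0.00301 and 3.85e-05). Among the regulators of these genes, the coactivator gene *Ppargc1b* rose from 1.80 ± 0.178 to 3.75 ± 0.218 FPKM (adjusted p = 3.93e-05) and the nuclear receptor gene *Ppard* from 9.23 to 11.1 FPKM, while *Pparg* fell from 0.494 to 0.223 FPKM (adjusted p = 0.0183).

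*Bdh2* encodes a cytosolic dehydrogenase named for the ketone body hydroxybutyrate (chromosome 3, 135281221 to 135304426). It had 5.86, 9.15, 13.6, and 8.66 FPKM in WT and 0.408, 0.328, 0.355, and 0.299 FPKM in HDAC1cKO-HDAC2HET samples, so the mean fell to 3.73% of WT. The lower Cufflinks bound of the lowest WT sample was 4.77 FPKM, and the highest upper bound of a mutant sample was 0.671 FPKM. The log2 fold change was -4.34 (SE 0.23, adjusted p = 5.70e-06), and its size at these low levels depends on the pseudocount of 0.1. Other ketone body genes moved less, with *Bdh1* at a log2 fold change of 0.23, *Acat1* at 0.20, and *Oxct1* at -0.56, all with an adjusted p of at most 6.43e-04.

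Some samples list a gene by name and others only by the position of its assembled locus. In the first experiment, of the 22 members whose groups did not overlap, 14 mixed samples listed by name with samples matched by position. In 14 of these 14 the direction was the same among samples listed alike. Only *Idi1*, *Msmo1*, *Nsdhl*, *Acadl*, and *Hadhb* could be compared in both kinds of listing, and the others in 1 kind. For *Fdft1* this set 1 mutant sample against 4 WT samples. The second experiment and the difference between the experiments were not checked in this way. All 6 values of *Idi1* listed by name were in the first experiment, so its comparison between the experiments mixed both kinds of listing. The assembled loci of *Fdft1*, *Cyp51*, *Srebf1*, *Srebf2*, *Acaca*, *Acadvl*, and *Hadha* touched a protein-coding gene on the opposite strand, so reads there can be shared if the assembly ignored strand.

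In HDAC1cKO cells, which kept both *Hdac2* alleles, no member was called. Of 34 members tested by limma, 0 rose and 0 fell at an adjusted p of at most 0.05, beside 0.0286% and 0.0643% of the 13997 genes tested. At an unadjusted p under 0.05 there were 7 members, compared with 14.2% of all genes. The HDAC1cKO samples lay above every WT sample for 5 members and below for 6, where 9.92% and 12.3% of all genes did so. With 3 samples against 3 the exact permutation test cannot go below p = 0.1. None of the genes of the wider lists was called in HDAC1cKO cells by limma, and at an unadjusted p under 0.05 there were 1 of 13 for sterol synthesis, 2 of 11 for sterol handling, 4 of 20 for fatty acid synthesis, 1 of 26 for beta-oxidation, 0 of 3 for the regulators, and 1 of 4 for ketone bodies.

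**Figure D4:**
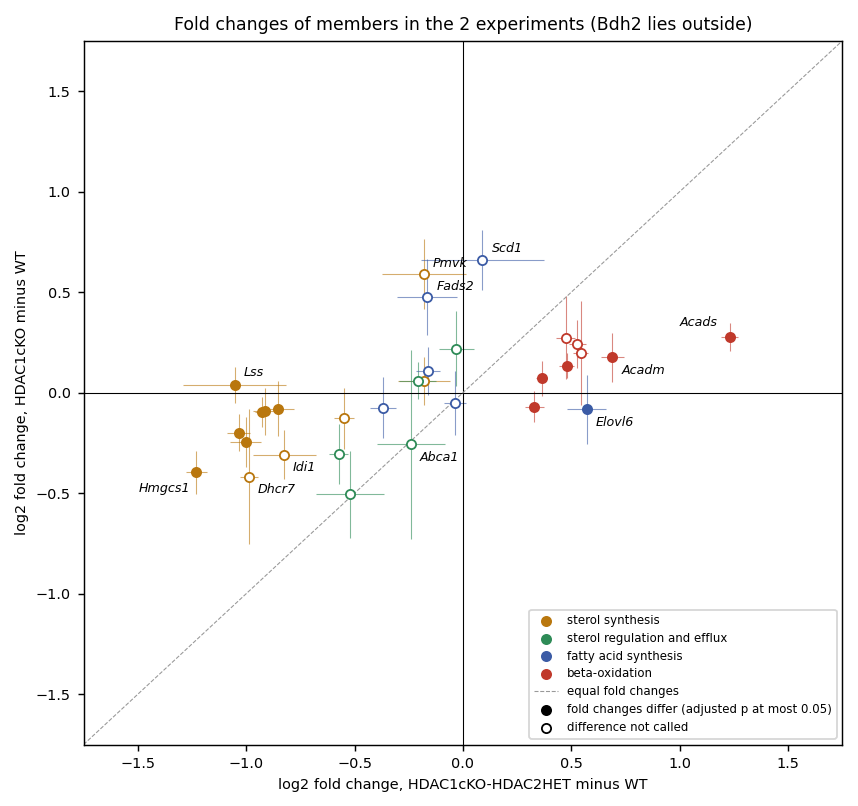
The log2 fold change of each member in HDAC1cKO cells (y axis) against that in HDAC1cKO-HDAC2HET cells (x axis), with standard errors as bars, pathways by colour, and a dashed line of equal fold changes. Filled symbols mark members whose fold changes differed by the test over all 14 samples. The sterol genes that fell lie left of the line and the beta-oxidation genes right of it. *Bdh2*, at -4.34 and -1.94, is outside the axes.

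Whether the fold changes differed between the experiments was tested directly, with a contrast over all 14 samples. They differed for 14 of 32 members, beside 15.7% of 12340 genes, and 7 of the 14 were sterol synthesis genes and 5 were beta-oxidation genes. The 14 and the 5 include *Acads*, whose difference was known when the set was chosen, so its call is not a test. The experiments differed in genotype, restimulation, time, and the sex of the samples, and for the second the study cites an earlier publication. These differences, and any in how the experiments were prepared, cannot be told apart.

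*Hmgcs1* had 107, 96.2, and 105 FPKM in WT and 67.5, 82.0, and 85.4 FPKM in HDAC1cKO samples, which did not overlap. Its log2 fold change of -0.40 (SE 0.11, adjusted p = 0.229) was smaller in size than that of HDAC1cKO-HDAC2HET cells by 0.83 (adjusted p of the difference = 5.71e-04). *Fdft1* had 20.4, 20.7, and 23.3 FPKM in WT and 17.4, 19.9, and 18.7 FPKM in HDAC1cKO samples, and *Cyp51* had 60, 62.0, and 67.3 against 56.5, 58.4, and 62.2 FPKM. The difference between the experiments was -0.84 for *Fdft1* and -0.83 for *Cyp51* (adjusted p = 2.67e-04 and 3.70e-05).

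The later enzymes were also compared. *Msmo1* had 40.2, 42.7, and 46.5 FPKM in WT and 30.6, 39.5, and 39.6 FPKM in HDAC1cKO samples. *Nsdhl* had 23.1, 29.5, and 32.7 against 28.1, 25.7, and 26.1 FPKM, and *Sc5d* had 26.8, 23.6, and 29.5 against 23.4, 23.5, and 27.9 FPKM. The groups of *Nsdhl* and *Sc5d* overlapped, and the differences between the experiments were -0.76, -0.77, and -0.82 for the 3 genes (adjusted p = 0.00348, 0.00558, and 9.89e-04). *Lss* had 13.6, 14.4, and 15 against 13.5, 15.3, and 15.4 FPKM, with a difference of -1.09 (adjusted p = 0.0268) that lost the threshold when mutant replicate 2 or 4 of the first experiment or HDAC1cKO replicate 2 or 3 was left out (adjusted p = 0.0515 to 0.0548). With sample weights the difference of *Lss* was not called either (adjusted p = 0.0536).

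For *Idi1*, *Sqle*, and *Dhcr7* the difference was not called, although that of *Sqle* was -0.54 (adjusted p = 0.0211) without HDAC1cKO replicate 1 in place of -0.42 (adjusted p = 0.0778). *Idi1* had 141, 125, and 136 FPKM in WT and 91.7, 113, and 122 FPKM in HDAC1cKO samples, which lay wholly below (log2 fold change -0.31, adjusted p = 0.341). *Dhcr7* had 18.9, 49.1, and 28.1 FPKM in WT and 20.8, 21.5, and 24.4 FPKM in HDAC1cKO samples. The high value was in WT replicate 2, the WT sample without *Xist*, and without it the difference was -0.93 (adjusted p = 0.00417) in place of -0.57 (adjusted p = 0.256). *Fdps*, testable only here, had 86.0, 64.7, and 76.8 against 90.4, 91.5, and 75.5 FPKM (adjusted p = 0.576). *Pmvk* had 23.8, 27.5, and 36.7 against 40.7, 48.6, and 41.7 FPKM, a log2 fold change of 0.59 (adjusted p = 0.248), on a shorter locus than in the first experiment. The difference of *Pmvk* was -0.77 (adjusted p = 0.0848), and -0.94 (adjusted p = 0.0410) without WT replicate 3.

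The WT cells themselves stood at different levels in the experiments, which were normalised separately, so the following is a description only. In 10 of 12 sterol synthesis genes every WT sample of the restimulated experiment lay below every WT sample of the other, and *Idi1* and *Dhcr7* overlapped, while 14.7% of 12340 genes were below in this way. Among the 11 whose loci matched between the experiments, which leaves out *Pmvk*, the count was 9. *Cyp51* had 109 ± 3.08 FPKM (SD, n = 4) in WT cells without and 63.1 ± 3.76 FPKM (SD, n = 3) in WT cells with restimulation, and the mutants stood at 57 and 59.0 FPKM. *Hmgcs1* had 229 and 103 FPKM in WT and 97.7 and 78.3 FPKM in the mutants. In 7 of 8 beta-oxidation genes the restimulated WT samples all lay above the others, as they did for 28.5% of all genes.

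For 5 of the 8 beta-oxidation genes the log2 fold change was higher in HDAC1cKO-HDAC2HET than in HDAC1cKO cells at an adjusted p of at most 0.05 for the difference. *Acads* had 25.4, 25.9, and 24.6 FPKM in WT and 29.6, 32.1, and 30.3 FPKM in HDAC1cKO samples. The groups did not overlap, but the mean was only 1.21-fold higher (log2 fold change 0.28, SE 0.07, adjusted p = 0.208). The fold changes of *Acads* in the experiments differed by 0.95 (SE 0.07), which is a description because the set was chosen with this difference known. With sex by *Xist* as a covariate, which puts WT replicate 3 with replicate 1, the HDAC1cKO value was 0.24 (adjusted p = 0.464).

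*Acadm* had 19.3, 25.0, and 23.5 FPKM in WT and 23.4, 25.7, and 27.2 FPKM in HDAC1cKO samples, and *Acadl* had 58.8, 60.5, and 57.9 against 66.4, 65.9, and 62.1 FPKM. *Acadvl* had 48.6, 52.7, and 48.1 against 48.7, 49.4, and 44.3 FPKM, and *Hadha* had 56.1, 67.8, and 62.4 against 66.3, 63.9, and 64.9 FPKM. Only *Acadl* of these 4 had groups that did not overlap. Their differences between the experiments were 0.51, 0.35, 0.40, and 0.29 (adjusted p = 0.0148, 0.00236, 0.00569, and 0.0225). That of *Hadha* was not called when each experiment kept its own spread (adjusted p = 0.089). For *Cpt1a*, *Cpt2*, and *Hadhb* the difference was 0.35, 0.20, and 0.28 and was not called (adjusted p = 0.377, 0.542, and 0.113). Without WT replicate 1 of this experiment that of *Hadhb* was 0.39 (adjusted p = 0.00754).

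In fatty acid synthesis, 1 of 6 genes differed between the experiments, beside 15.7% of all genes tested. *Elovl6* had 4.88, 5.11, and 3.72 FPKM in WT and 3.89, 4.07, and 4.91 FPKM in HDAC1cKO samples, without a rise. Its difference between the experiments was 0.65 (adjusted p = 0.0273), but this call was lost in 7 of the 14 omissions of 1 sample (WT replicates 2 and 4 and mutant replicates 1 and 2 of the first experiment, and WT replicate 2 and HDAC1cKO replicates 1 and 2 of the second, adjusted p = 0.0507 to 0.0662). The call was also lost with sample weights (adjusted p = 0.0668) and when each experiment kept its own spread (adjusted p = 0.069). *Scd1* had 14.2, 17.0, and 15.1 FPKM in WT and 21.4, 22.8, and 29.8 FPKM in HDAC1cKO samples, with groups that did not overlap (log2 fold change 0.66, adjusted p = 0.192). *Fads2* had 29.5 to 39.1 and 40.5 to 62.2 FPKM (log2 fold change 0.48, adjusted p = 0.345). Its difference between the experiments was called only without WT replicate 2 of the first (-0.77, adjusted p = 0.0417). *Scd2* was covered by a longer locus in WT replicate 1 and HDAC1cKO replicate 2, and the remaining samples had 158 and 176 FPKM in WT and 206 and 218 FPKM in the mutant, again with lower *Scd2* bounds of 0. *Acaca*, *Fasn*, *Acly*, and *Fads1* had log2 fold changes from -0.08 to 0.11 with adjusted p-values from 0.624 to 0.911.

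Of the regulators, *Insig1* had 37.6 to 50.2 FPKM in WT and 29.7 to 38.9 FPKM in HDAC1cKO samples (log2 fold change -0.31, adjusted p = 0.404). *Srebf1*, *Srebf2*, and *Abca1* had overlapping groups with log2 fold changes of 0.22, 0.06, and -0.26. *Abca1* reached 2.43 FPKM in WT replicate 1 and stayed between 0.804 and 1.44 FPKM in the other 5 samples. *Abcg1* had a log2 fold change of -0.51, close to the -0.52 of the first experiment (difference -0.02, SE 0.27, adjusted p = 0.981).

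*Bdh2* was low in HDAC1cKO cells as well, with more scatter. It had 3.48, 11.8, and 5.98 FPKM in WT and 1.55, 0.891, and 2.71 FPKM in HDAC1cKO samples. The groups did not overlap and the mean was 24.2% of WT, yet the spread left it uncalled (log2 fold change -1.94, SE 0.55, adjusted p = 0.242). The fold changes of the experiments differed by -2.40 (SE 0.58, adjusted p = 0.0171), and with a pseudocount of 1 by -1.39 (adjusted p = 0.0681).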

How the data were processed

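RNA was measured by sequencing in 14 samples, grouped by genotype and experiment from the sample labels and the study's methods. Those methods describe stranded mRNA libraries and give no separate library protocol for the second experiment. Per the methods, the authors aligned reads to mm10 with TopHat, and Cufflinks gave the FPKM values they deposited for each library, while the submitters' processing notes name STAR 2.5.2b and Subread 1.5.1, and no counts were used here. A gene's value was its named row or, without one, the assembled locus sharing at least 0.8 of the joint span with the gene in the GENCODE vM21 annotation of GRCm38. The expression of *Mvd* was not analysed here, and *Fdps*, *Acly*, and *Scd2* were tested only where no longer locus replaced theirs. Depth was estimated from the Cufflinks bounds of single-transcript genes and limits the precision of low values.

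FPKM was transformed as log2(FPKM + 0.1), which understates the change of low genes, and each experiment was fitted in limma 3.58.1 (R 4.3.3) with a variance trend. Benjamini-Hochberg adjustment covered all genes whose mean FPKM reached 0.1. The difference between experiments was a contrast of 4 group means. Single genes were also compared with 2-sided exact permutation tests over 70 or 20 arrangements. Values were given for every sample of members called with a fold of at least 1.5, members whose fold changes differed between the experiments, and *Acads*. Of the wider lists, the 2 largest rises and 2 largest falls with groups that did not overlap were named. Other genes of these lists were named where they qualified a pattern of the members. The alternatives changed the pseudocount, filter, scaling (median-ratio centring or quantile normalization), variance model, sample weights, covariates, and locus matching. Each sample was also left out in turn. The members and lists were chosen with earlier results of these data known. The scripts were tested on simulated data. Figures were drawn with matplotlib 3.10.9.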

Additional observations from a re-analysis of the deposited data

Results flagged for a closer look

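Within the groups of 4 samples, 4 of 64 sets of member values had an end sample far from the other 3 by Dixon's ratio, and chance alone gives about 1 in 20. *Idi1* stood at 154 FPKM in WT replicate 1, *Lss* at 26.7 FPKM in HDAC1cKO-HDAC2HET replicate 1, *Abca1* at 0.593 FPKM in WT replicate 1, and *Fasn* at 82.3 FPKM in HDAC1cKO-HDAC2HET replicate 3, each the highest of its group. *Idi1* and *Lss* were called lower without these samples too.

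The log2 fold changes of 14 members differed between the experiments by the contrast over all samples. Relative to HDAC1cKO cells, those of HDAC1cKO-HDAC2HET cells were lower for *Hmgcs1* (-0.834), *Fdft1* (-0.835), *Lss* (-1.09), *Cyp51* (-0.832), *Msmo1* (-0.759), *Nsdhl* (-0.774), *Sc5d* (-0.821), and *Bdh2* (-2.40). They were higher for *Elovl6* (0.653), *Acads* (0.954), *Acadm* (0.514), *Acadl* (0.346), *Acadvl* (0.398), and *Hadha* (0.292). The difference of *Acads* was known when the genes were chosen. Genotype, restimulation, time, and sex differed together between the experiments, as their preparation may have, and cannot be told apart.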

How the results depend on the processing

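With each sample left out in turn, 9 members rose and 13 to 17 fell in HDAC1cKO-HDAC2HET cells, 0 rose and 0 fell in HDAC1cKO cells, and the fold changes of 12 to 15 members differed between the experiments. Under the other alternatives run, 9 rose, 14 or 15 fell, and 12 to 15 differed, though not always the same members. With quantile normalization *Fasn* and *Srebf2* were called lower in HDAC1cKO-HDAC2HET cells and *Abcg1* and *Fads1* were not. In HDAC1cKO cells almost all alternatives again called no member. The exception was the fit of both experiments together, in which all 14 samples share 1 spread. There, 1 member rose and 2 fell in HDAC1cKO cells, namely *Acads* (adjusted p = 0.00609), and *Hmgcs1* and *Bdh2* (adjusted p = 0.0124 and 0.0175). Of the single values under alternatives, 2034 kept their side of the threshold, 31 lost it, and 17 gained it. None that was called in the main fit or under an alternative changed direction. The direction of values called in neither was not checked. Samples with the same replicate number did not deviate together, with correlations from -0.00714 to 0.0621 in the first experiment and -0.0157 to 0.0127 in the second, and with the replicate number as a block 9 members rose and 14 fell in the first and 0 in the second. The sex covariate was fitted only in the second experiment, since all samples of the first expressed *Xist*. With 3 samples a group and unequal sexes, smaller changes in HDAC1cKO cells may have been missed. Levels of *Abca1* and of *Bdh2* in the mutants were low, where depth limits the precision.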
